A study of Rattus norvegicus with 16 samples.

Results

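The Hox and T-box genes described here are the 28 genes whose symbol is Hox with a cluster letter and a number (22 genes) or Tbx with a number (6 genes), of 14217 genes that the array names by exactly 1 symbol. They are measured by 35 of the 31042 probe sets tested, and each gene is shown by its brightest probe set, taking the mean over the 16 arrays. The Hox genes comprise 5 of the HoxA cluster, 6 of HoxB, 4 of HoxC and 7 of HoxD. The genes were taken by symbol, and only the probe set shown for each was chosen by its level.

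The study measured total RNA of rat adrenal tissue, all rats being of a mixed strain, Sprague-Dawley white eye/Wistar-Kyoto. Mutant rats carried a mutation of p27Kip1 (Cdkn1b), an inhibitor of cyclin-dependent kinases. The design text compares hyperplasia, an overgrowth of the adrenal medulla, and pheochromocytoma, a tumour of its chromaffin cells, with medulla of age-matched wild-type littermates. Hyperplasia was taken at 2 months (n = 8 arrays, 4 labelled female and 4 male) and set beside 2 young wild-type pools of 2 months, 1 of 2 animals labelled male and 1 of 3 animals labelled female. Pheochromocytoma was taken at 8 months in 3 rats labelled female and at 9 months in 1 labelled male (n = 4), and set beside 2 older wild-type pools of 2 animals each. The first older pool was of 10 months and labelled female, and the second joined animals of 12 and 17 months labelled male. Both older pools were thus older than every pheochromocytoma, and labelled sex was not balanced between tumours and pools. Age therefore cannot be told apart from lesion in that comparison. Each pool counts as 1 replicate and shows less than the spread between single animals. Both lesions are of mutant rats and all controls are wild-type pools. Lesion, genotype and pooling therefore cannot be told apart in any difference between a lesion and its controls.

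Hox proteins are homeodomain transcription factors encoded in clusters, and the position of a gene in its cluster goes with where along the body axis it acts in the embryo. They bind DNA together with Pbx and Meis proteins, and Polycomb and trithorax proteins keep the clusters silent or active. T-box factors bind a shared core motif and direct the growth of limbs, heart, lung and other organs. Tbx2 and Tbx3 are known mainly as repressors, and Tbx4 and Tbx5 mainly as activators.

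All values are log2 values as deposited, so a difference of 1 is a 2-fold change. Differences are given ± SE from a limma fit over all 16 arrays, and a gene passed at a Benjamini-Hochberg adjusted p under 0.05 over all probe sets. The values lay between 2.41 and 14.54, with array medians of 6.51 to 6.61 and first quartiles of 4.71 to 4.93. Arrays of a group correlated at 0.981 to 0.996 and arrays of different groups at 0.94 to 0.987. The brighter of the 2 Cdkn1b probe sets read 11.58 to 11.86 in hyperplasia and 10.89 and 11.04 in the young pools. It differed by 0.73 ± 0.11 in hyperplasia (limma adjusted p = 0.00101) and by 0.94 ± 0.12 in pheochromocytoma (adjusted p = 0.000256). The other read 5.45 to 6.81 in hyperplasia and 6.84 and 6.96 in the young pools. It differed by -0.81 ± 0.26 in hyperplasia (limma adjusted p = 0.0676) and by 0 ± 0.28 in pheochromocytoma (adjusted p = 0.997). Between older and young pools the other probe set differed by -2.76 ± 0.33 (limma adjusted p = 2.44e-05). The labels do not describe the mutation closely enough for these levels to check it. Xist, which is transcribed from the inactive X chromosome of females, disagreed with the labelled sex on 6 arrays, 4 of hyperplasia and both young pools, so sex was left out of the fit. Markers of chromaffin cells were bright in every group, with means over 7 genes of 13.43 to 13.69. Markers of the adrenal cortex, the outer gland that makes steroids, averaged over 10 genes 12.36 ± 0.07 (SD) in young pools, 11.57 ± 0.30 in hyperplasia, 12.88 ± 0.22 in older pools and 11.70 ± 0.60 in pheochromocytoma. In bulk tissue, fewer cells of a type and less RNA per cell cannot be told apart.

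Tbx4 had the largest difference of the 28 genes in both lesions. Tbx4 is the T-box factor of the hindlimb and the lung bud. It read 6.44 and 6.62 in the young pools, and the 8 hyperplasia arrays ran from 8.50 through a median of 8.75 to 9.02. In the older pools it read 5.83 and 5.59, and in pheochromocytoma 7.98, 8.17, 8.86 and 9.78. Every lesion array lay above every wild-type pool, with a gap of over 1 log2 unit. The difference was 2.21 ± 0.30 in hyperplasia, or 4.63-fold (limma adjusted p = 0.000562), and 2.99 ± 0.33 in pheochromocytoma, or 7.93-fold (adjusted p = 0.000119). The pheochromocytoma arrays were more spread (8.70 ± 0.82, SD, n = 4) than the hyperplasia arrays (8.74 ± 0.15, n = 8). The effect in pheochromocytoma exceeded that in hyperplasia by 0.77 ± 0.45, with a 95% interval of -0.17 to 1.72 that includes 0 (limma adjusted p = 0.54). With the mean of the cortex markers as a covariate Tbx4 still passed in both comparisons, and it passed without each array in turn, at 2.12 to 2.30 in hyperplasia and 2.63 to 3.22 in pheochromocytoma.

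**Figure D1:**
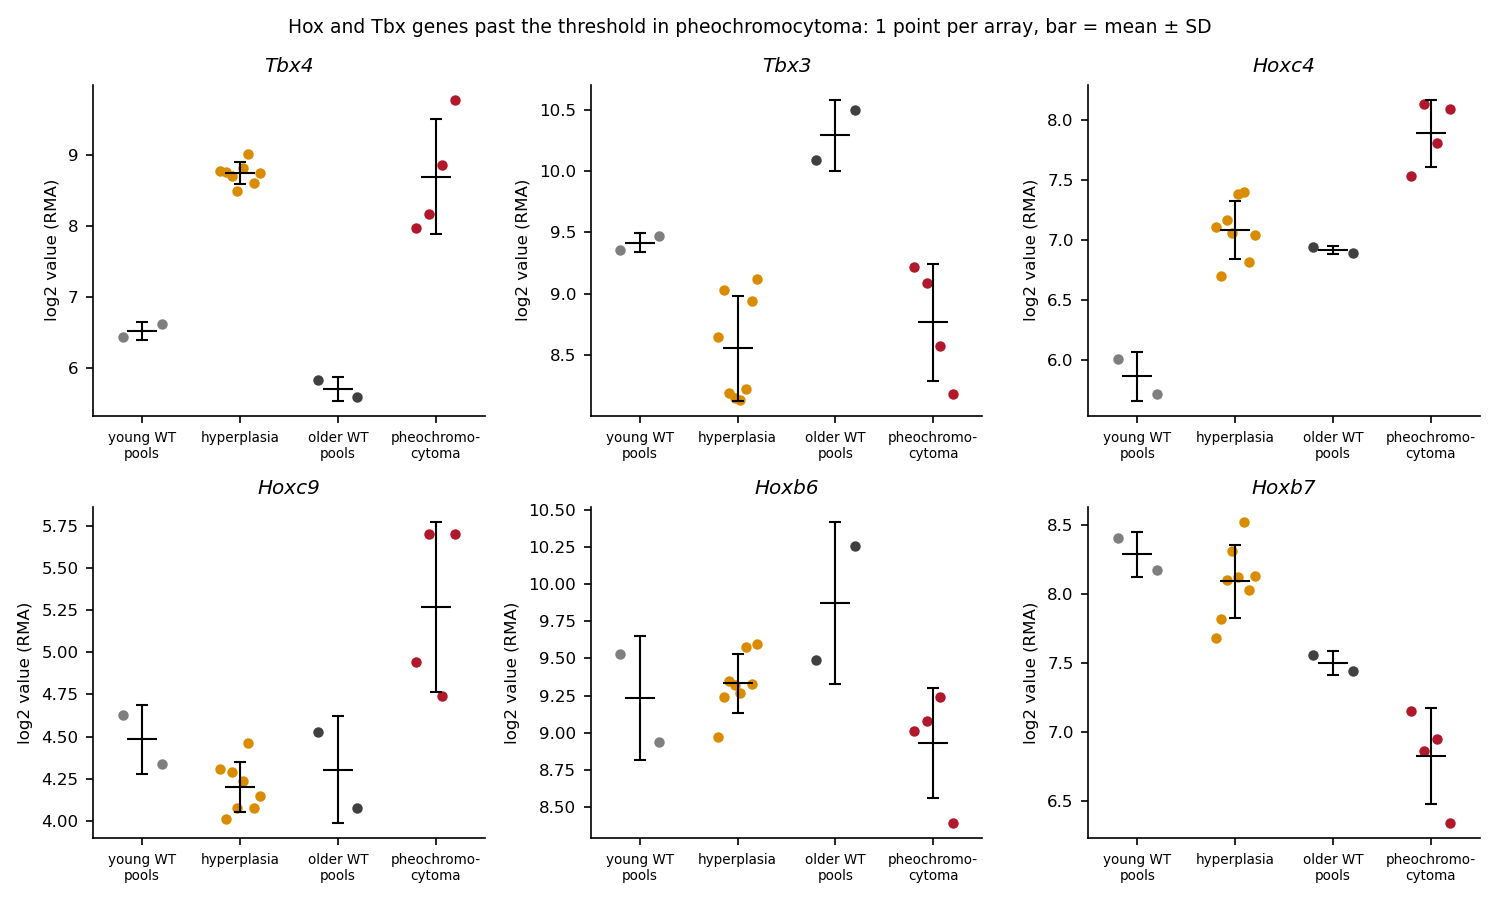
Log2 values of the 6 genes past the threshold in pheochromocytoma, 1 point per array, in 2 young wild-type pools, 8 hyperplasias, 2 older wild-type pools and 4 pheochromocytomas, with the mean and SD as bars. The Tbx4 points of both lesions lie above all 4 pools, Tbx3 points of both lesions lie below their own pools, and hyperplasia overlaps the young pools for Hoxb6, Hoxb7 and Hoxc9.

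The bases ahead of Tbx4 are shown because it was the gene that differed most in these samples. RefSeq places the 250 bases before its start at chr10:71228306-71228555 on the plus strand of GRCr8. In this and the other promoters printed here, capitals mark a match on either strand to the T-box core AGGTGT, the Hox core TAAT or the joint Hox and Pbx motif TGATNNAT, whose letters may overlap those of TAAT.
Tbx4: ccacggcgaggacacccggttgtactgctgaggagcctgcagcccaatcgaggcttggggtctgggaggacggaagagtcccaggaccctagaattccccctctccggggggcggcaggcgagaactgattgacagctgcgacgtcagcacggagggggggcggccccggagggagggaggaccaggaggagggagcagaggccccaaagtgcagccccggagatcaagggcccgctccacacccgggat
The Tbx4 stretch held no match to any of the 3 motifs and 16 CG pairs, against a median of 5 over all promoters. Of 33465 rat promoters of the same length, 11.6% held AGGTGT, 57% held TAAT and 7.96% held TGATNNAT. Promoter entries were found for 16 of the 28 genes (17 entries), of which 1 held AGGTGT, 8 held TAAT and 1 held TGATNNAT. A match is a description of letters only.

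The measured genes near Tbx4 on the chromosome differed by less than Tbx4 did. Tbx2, its direct neighbour in the GRCr8 gene order and its close relative, differed by -0.17 ± 0.12 in hyperplasia (limma adjusted p = 0.431) and by -0.18 ± 0.13 in pheochromocytoma (adjusted p = 0.38). The 2 genes beyond it, Bcas3 and Ppm1d, were higher in pheochromocytoma by 0.38 (limma adjusted p = 0.0193) and 0.46 (adjusted p = 0.0107) and did not pass in hyperplasia, at 0.13 and 0.17. On the other side, the direct neighbour Brip1 was not measured, and Ints2, Med13 and Rnft1 beyond it passed in neither lesion. The genes with the pattern most like Tbx4 over the 16 arrays were Racgap1 (Pearson r = 0.988), Ndufa4l2 (0.966), Klhl23 (0.962), Dgkh (0.959) and A4galt (0.957). In Tbx4 level the lesion arrays lie apart from the wild-type pools, and within the 8 hyperplasia arrays the same r values were 0.05, 0.38, 0.11, 0.30 and 0.78. Racgap1, a regulator of cell division, differed by 2.12 ± 0.25 in hyperplasia (limma adjusted p = 0.000192) and by 2.64 ± 0.28 in pheochromocytoma (adjusted p = 8.34e-05). These values are of its brighter probe set. Its dimmer probe set differed by 1.70 ± 0.24 (limma adjusted p = 0.000835) and 1.00 ± 0.27 (adjusted p = 0.0216). That probe set was lower in pheochromocytoma than in hyperplasia by -1.35 ± 0.19 (limma adjusted p = 3.37e-05). Its pheochromocytoma arrays, at 4.35 to 5.66, overlapped the young pools, at 4.42 and 4.51.

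Tbx3, a repressor known for roles in limb, heart and mammary development, was lower in pheochromocytoma. Its brightest probe set read 10.09 and 10.50 in the older pools and 9.22, 9.09, 8.57 and 8.18 in pheochromocytoma, so the groups did not overlap. The difference was -1.53 ± 0.32 (limma adjusted p = 0.00585). In hyperplasia it ran from 8.13 through a median of 8.44 to 9.12, below the young pools at 9.36 and 9.47, and the difference of -0.86 ± 0.29 missed the threshold (adjusted p = 0.088). The 2 effects differed by -0.67 ± 0.44, with a 95% interval of -1.59 to 0.26 (limma adjusted p = 0.594).

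Tbx3 has 4 probe sets, and all 4 were lower in pheochromocytoma, by -1.09 to -1.54 (limma adjusted p of 0.000515 to 0.0154). In hyperplasia, 2 of the 4 passed. Its dimmest probe set read 7.60 and 7.33 in the young pools and 5.91 to 6.72 in hyperplasia, a difference of -1.17 ± 0.20 (limma adjusted p = 0.00214), and the next dimmest differed by -0.91 ± 0.19 (adjusted p = 0.00856). The second brightest differed by -0.50 ± 0.25 in hyperplasia (limma adjusted p = 0.248). The mean of all 4 probe sets passed in both comparisons. For the brightest probe set, the pheochromocytoma call ended with the cortex markers as a covariate (-0.50, limma adjusted p = 0.505), with the fibroblast and pericyte markers as a covariate (-1.36, adjusted p = 0.0581) and without the second older pool (-1.32, adjusted p = 0.126). Cortex markers moved with it, 8 of 10 being lower in pheochromocytoma and 3 of 10 in hyperplasia, where 7.10% and 3.47% of all genes were lower.

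**Figure D2:**
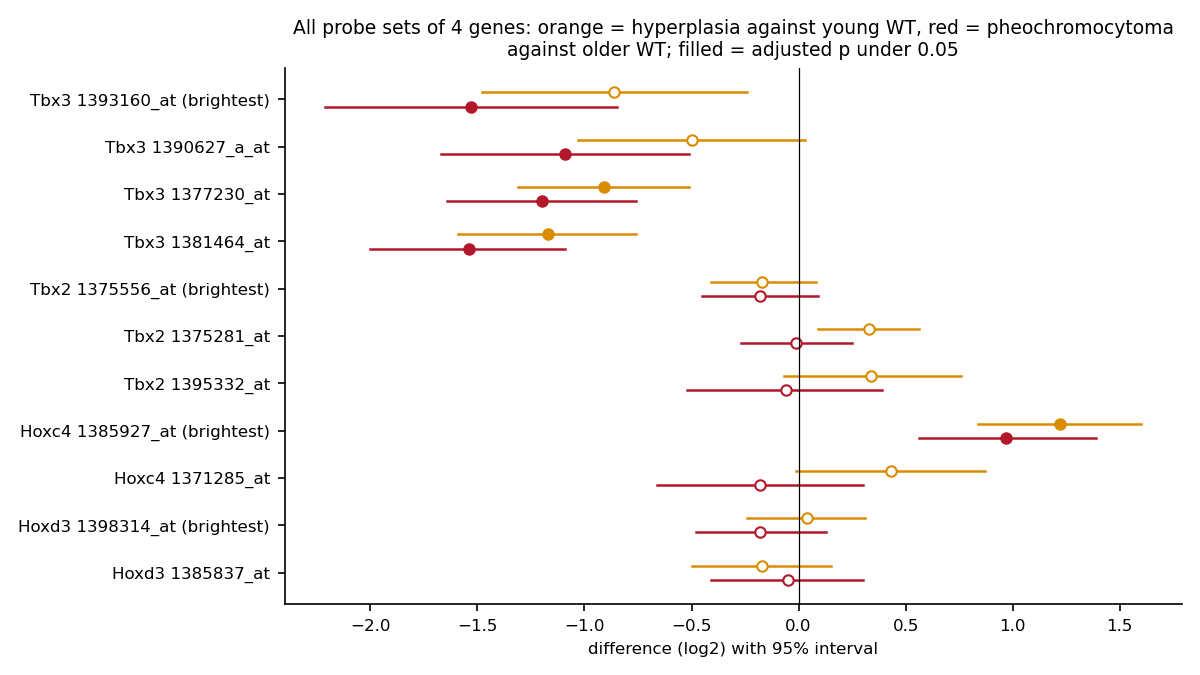
Log2 difference with its 95% interval for every probe set of the 4 genes that have more than 1, in hyperplasia against young wild type and in pheochromocytoma against older wild type. The differences of all 4 Tbx3 probe sets lie below 0 in both lesions, although the interval of the second brightest reaches 0.03 in hyperplasia. The 2 probe sets of Hoxc4 part in pheochromocytoma, at 0.97 and -0.18.

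The other 4 T-box genes passed in neither lesion against its controls. Tbx2, the relative of Tbx3 that also acts as a repressor, has 3 probe sets with differences of -0.17 to 0.34 in hyperplasia and -0.18 to -0.01 in pheochromocytoma, none past the threshold. Tbx19, which drives Pomc expression in pituitary corticotrophs, differed by -0.03 ± 0.14 in hyperplasia and by 0.05 ± 0.15 in pheochromocytoma. Tbx5, the forelimb and heart factor, and Tbx18, a factor of the sinus node and ureter, lay under the first quartile on all 16 arrays, at 2.96 to 3.86, where a difference is hard to detect. Their differences were -0.02 ± 0.13 and -0.31 ± 0.17 in hyperplasia and -0.08 ± 0.14 and -0.13 ± 0.19 in pheochromocytoma.

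In hyperplasia 3 of the 28 genes were higher and 0 lower than in young wild type, or 10.7%. Of all 14217 genes 8.89% passed in this comparison, 5.42% higher and 3.47% lower, so the share of the Hox and T-box genes was near that of all genes. Their median difference was -0.011, and that of all genes -0.0112. In pheochromocytoma 3 were higher and 3 lower than in older wild type, or 21.4%, against 16.8% of all genes, 9.66% higher and 7.10% lower. The median was -0.0571 for the 28 genes and 0.005 for all. In pheochromocytoma 4 of the 28 genes lay wholly above the older pools and 8 wholly below, Hoxb13 among them at a difference of -0.07. With 4 arrays against 2 pools, a lack of overlap is thus weak evidence. Its share over all genes was not counted for this comparison. Without the second older pool 1 gene passed in pheochromocytoma, Tbx4, and with the cortex markers or the fibroblast and pericyte markers as a covariate likewise 1, Tbx4. Over all probe sets, 2579 were higher and 1846 lower in pheochromocytoma, a split that became 2302 and 2237 after quantile normalization and 1938 and 2416 after median centring. The difference between the 2 effects passed for 0 of the 28 genes by limma, with 2 at an unadjusted p under 0.05, and for 0.0141% of all genes. In those genes the effect in pheochromocytoma was above that in hyperplasia (0.0141% above and 0% below).

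**Figure D3:**
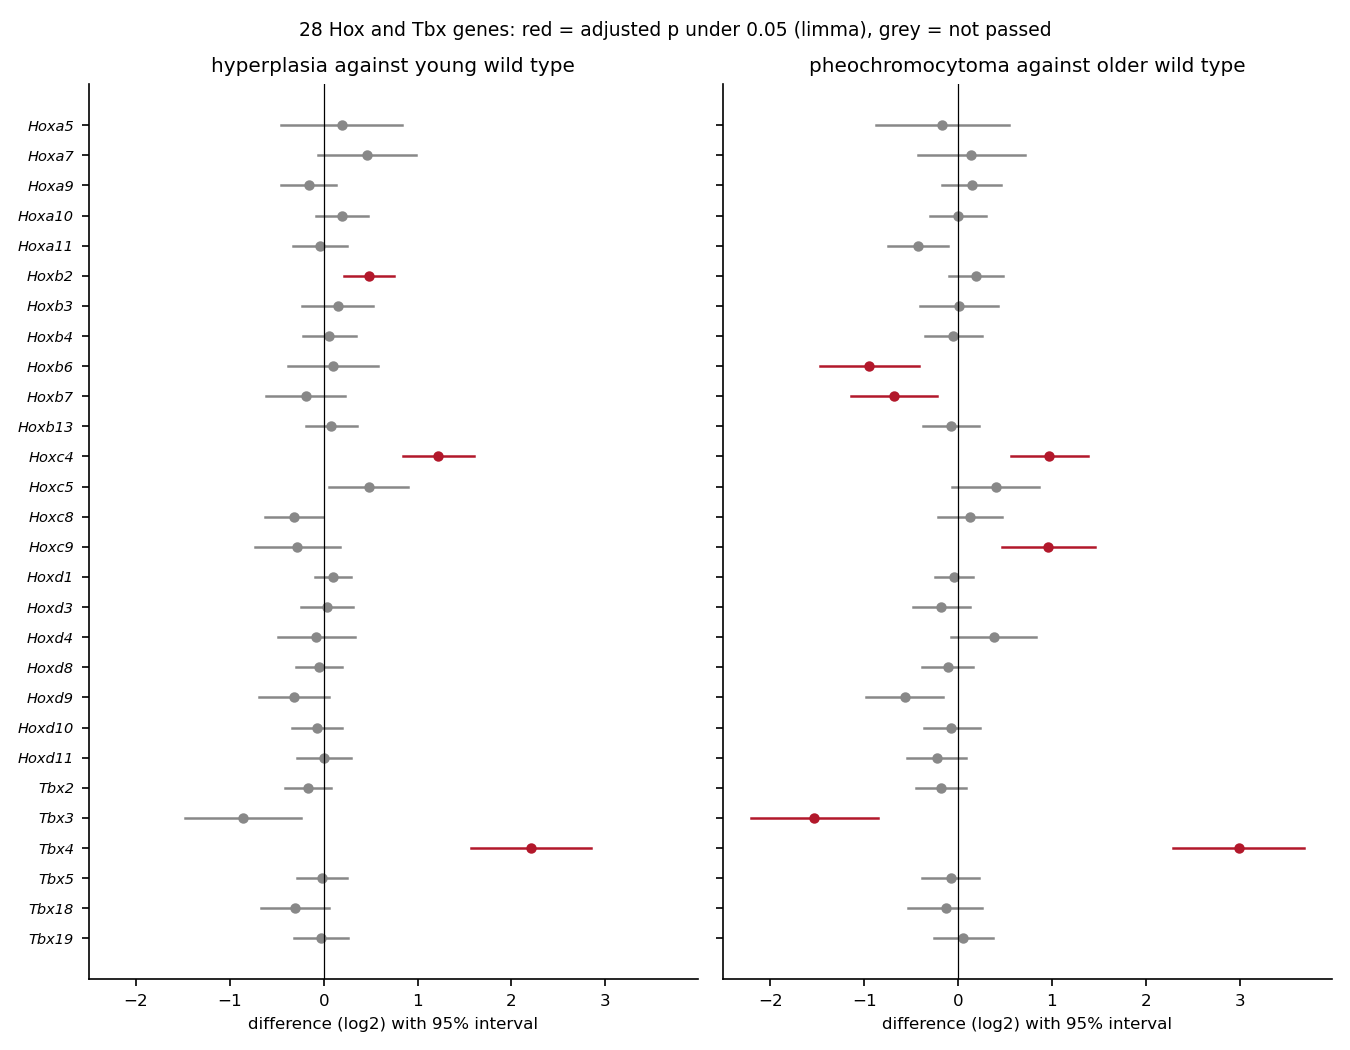
Log2 difference with its 95% interval for all 28 genes, in hyperplasia against young wild type (left) and pheochromocytoma against older wild type (right). The genes in red passed, 3 on the left and 6 on the right, and Tbx4 lies farthest from 0 on both sides, at 2.21 and 2.99.

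Hoxc4 was the Hox gene with the largest difference, and the only one of the 22 to pass in both lesions against their controls. Its brighter probe set read 6.01 and 5.72 in the young pools and ran from 6.70 through a median of 7.09 to 7.40 in hyperplasia. It read 6.94 and 6.89 in the older pools and 7.53, 8.13, 7.81 and 8.09 in pheochromocytoma. Each lesion lay wholly above its own pools, while hyperplasia covered the levels of the older pools. The difference was 1.22 ± 0.18 in hyperplasia (limma adjusted p = 0.000924) and 0.97 ± 0.20 in pheochromocytoma (adjusted p = 0.00452).

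The dimmer Hoxc4 probe set did not follow. It read 6.68 and 5.76 in the young pools, 6.36 to 7.14 in hyperplasia, 6.16 and 6.05 in the older pools and 5.67 to 6.12 in pheochromocytoma. Its differences of 0.43 ± 0.21 and -0.18 ± 0.23 did not pass (limma adjusted p = 0.233 and 0.647). In the mean of both probe sets Hoxc4 passed in hyperplasia and not in pheochromocytoma (0.40, limma adjusted p = 0.137). The pheochromocytoma call also ended with the cortex markers as a covariate (0.53, adjusted p = 0.372), with the fibroblast and pericyte markers (0.84, adjusted p = 0.0525) and without the second older pool (0.94, adjusted p = 0.0784). The labels and files used here do not say where on the transcripts each probe set lies. Hoxc4 and Hoxc5 are known to share upstream transcript sequence, and antisense transcripts run through Hox clusters, so values of single Hox genes are uncertain.

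The start of Hoxc4 is shown for the same reason, as the Hox gene that changed most. Its 250 upstream bases in RefSeq lie at chr7:136048809-136049058 on the plus strand of GRCr8.
Hoxc4: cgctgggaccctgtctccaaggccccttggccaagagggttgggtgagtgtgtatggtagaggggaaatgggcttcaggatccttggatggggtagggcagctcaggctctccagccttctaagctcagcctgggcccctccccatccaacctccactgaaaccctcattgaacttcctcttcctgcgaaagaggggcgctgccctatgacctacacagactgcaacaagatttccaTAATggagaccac
It held 1 TAAT near its end, no T-box core and 3 CG pairs. It also held 1 match to AGGTCA, the core of a retinoid receptor site, which 14.1% of all promoters hold.

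Over the 4 measured HoxC genes, Hoxc4 included, the median difference in pheochromocytoma was 0.683, against 0.005 over all genes. Of the 4 genes 2 were higher, Hoxc4 and Hoxc9, where 9.66% of all genes were higher. Hoxc9, a posterior trunk gene, read 4.53 and 4.08 in the older pools and 4.94, 5.70, 4.74 and 5.70 in pheochromocytoma, with no overlap. The difference was 0.96 ± 0.23 (limma adjusted p = 0.0127). Its signal was low: both older pools, both young pools, all 8 hyperplasia arrays and 1 of 4 pheochromocytoma arrays lay under the first quartile of their array. In hyperplasia it differed by -0.28 ± 0.21 (adjusted p = 0.477), and the 2 effects differed by 1.25 ± 0.32, which did not pass (adjusted p = 0.188). The pheochromocytoma call ended with the cortex markers (0.45, limma adjusted p = 0.545) or the fibroblast and pericyte markers (0.74, adjusted p = 0.128) as a covariate, and without the second older pool (0.74, adjusted p = 0.223). It also ended in a fit of the 6 arrays compared alone (0.96, limma adjusted p = 0.104).

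Hoxc5, the neighbour of Hoxc4, had differences of 0.48 ± 0.20 in hyperplasia and 0.40 ± 0.22 in pheochromocytoma and passed in neither (limma adjusted p = 0.161 and 0.233). Hoxc8 was under the first quartile on all 16 arrays and differed by -0.32 ± 0.15 and 0.13 ± 0.16 (adjusted p = 0.206 and 0.637).

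In the HoxB cluster 2 of 6 genes were lower in pheochromocytoma, where 7.10% of all genes were lower. Hoxb6, active in trunk mesoderm and blood progenitors, read 9.49 and 10.26 in the older pools and 9.01, 9.08, 9.24 and 8.39 in pheochromocytoma. Hoxb7, its direct neighbour, read 7.56 and 7.44 in the older pools and 7.15, 6.86, 6.95 and 6.34 in pheochromocytoma. Neither gene's groups overlapped, although the 2 older pools of Hoxb6 lay far apart. The difference of Hoxb6 was -0.95 ± 0.25 (limma adjusted p = 0.0184) and that of Hoxb7 was -0.68 ± 0.22 (adjusted p = 0.0474). In hyperplasia Hoxb6 differed by 0.10 ± 0.22 and Hoxb7 by -0.19 ± 0.20, and neither passed. The effect on Hoxb6 in pheochromocytoma was lower than that in hyperplasia by -1.05 ± 0.33, which did not pass (limma adjusted p = 0.272).

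Hoxb6 passed without each array but the second older pool, where it was at -0.56 (limma adjusted p = 0.354). The Hoxb6 call also ended with the cortex markers as a covariate (-0.48, limma adjusted p = 0.562) and with the fibroblast and pericyte markers (-0.73, adjusted p = 0.161). It ended too in a fit of the arrays compared alone (-0.95, limma adjusted p = 0.0935). Hoxb7, whose adjusted p lay just under the threshold, passed without only 1 of the 6 arrays of the comparison. Its difference ran from -0.79 to -0.51 over those fits. The Hoxb7 call also ended with the cortex markers as a covariate (-0.32, limma adjusted p = 0.693) and with the fibroblast and pericyte markers (-0.35, adjusted p = 0.398). With labelled sex as a covariate it ended at -0.68 (limma adjusted p = 0.0616).

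Hoxb2, a hindbrain gene, was the only HoxB gene higher in hyperplasia. It read 9.26 and 8.80 in the young pools and ran from 9.24 through a median of 9.56 to 9.66 in hyperplasia, so the lowest hyperplasia array overlapped the higher pool. The difference was 0.48 ± 0.13 (limma adjusted p = 0.0289). Fitted on the arrays compared alone it did not pass (limma adjusted p = 0.0577). Without the second young pool it was 0.25 (limma adjusted p = 0.484), and with the cortex markers as a covariate 0.39 (adjusted p = 0.281). Leaving out the 4 hyperplasias with Xist against their sex label, it was 0.43 (limma adjusted p = 0.16). In pheochromocytoma it differed by 0.19 ± 0.14 (adjusted p = 0.386). Hoxb4, a gene of blood stem cells and the neck region, differed by 0.06 ± 0.13 and -0.05 ± 0.15, and Hoxb3 by 0.15 ± 0.18 and 0.01 ± 0.20, none past the threshold.

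No gene of the HoxA or HoxD cluster passed in either lesion against its own controls. Over the 20 Hox genes that did not pass in hyperplasia the differences ran from -0.32 to 0.48, and over the 18 that did not pass in pheochromocytoma from -0.57 to 0.40. The nearest to the threshold was Hoxd9 in pheochromocytoma, at -0.57 ± 0.19 (limma adjusted p = 0.0596). It read 6.47 and 6.97 in the older pools and 5.85 to 6.38 in pheochromocytoma, without overlap, and it passed after quantile normalization and after median centring. Hoxa7 differed by 0.46 ± 0.24 in hyperplasia (limma adjusted p = 0.278) and 0.14 ± 0.27 in pheochromocytoma, and Hoxa5, which patterns lung and neck, by 0.19 ± 0.30 and -0.17 ± 0.33. Of the 22 Hox genes 6 lay under the first quartile on all 16 arrays (Hoxa9, Hoxa10, Hoxb13, Hoxc8, Hoxd1 and Hoxd10), and 6 lay above the median on all of them (Hoxa5, Hoxb2, Hoxb3, Hoxb4, Hoxb6 and Hoxd8). Tbx2 and Tbx3 were above the median throughout as well. Brightness also depends on the probes, so these positions give no order of abundance.

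Lesions and pools were also compared across ages. Against hyperplasia, pheochromocytoma was higher in 8 and lower in 3 of the 28 genes, or 39.3%, where 35.8% of all genes passed, 15.7% higher and 20.2% lower. Older against young wild-type pools, 5 genes were higher and 1 lower, or 21.4%, where 21.5% of all genes passed, 8.58% higher and 12.9% lower. These comparisons reuse the arrays of the first 2, and here age goes with group. The upper quartile of the array was 8.47 to 8.55 in hyperplasia and young pools and 8.33 to 8.44 in pheochromocytoma and older pools, and the sources do not say whether all arrays were normalized in 1 run. Age, lesion and normalization cannot be told apart in pheochromocytoma against hyperplasia, nor age and normalization in the pools.

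The HoxD cluster had 4 of 7 genes higher and 1 lower in pheochromocytoma than in hyperplasia, where 15.7% of all genes were higher and 20.2% lower. In older against young pools 2 of 7 were higher, where 8.58% of all genes were higher. The median difference of the cluster between the pools was 0.6, against -0.0338 over all genes. Hoxd8 read 9.59 and 9.82 in the young pools, 9.50 to 9.81 in hyperplasia, 10.07 and 10.56 in the older pools and 10.15 to 10.30 in pheochromocytoma. The older pools and the tumours lay together above all young arrays. The difference between pools was 0.61 ± 0.15 (limma adjusted p = 0.00694), and that between lesions 0.55 ± 0.09 (adjusted p = 0.000133). Without the second older pool the difference between pools was 0.36 (limma adjusted p = 0.111), and without the first young pool 0.49 (adjusted p = 0.0745).

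Hoxd11, a limb and kidney gene, read 4.58 and 4.46 in the young pools, 4.26 to 4.86 in hyperplasia, 5.25 and 5.59 in the older pools and 5.09, 5.28, 5.16 and 5.26 in pheochromocytoma. It split the arrays as Hoxd8 did, at 0.90 ± 0.17 between pools (limma adjusted p = 0.0015) and 0.68 ± 0.11 between lesions (adjusted p = 8.54e-05), although both young pools and 7 of 8 hyperplasia arrays lay under the first quartile. Hoxd4 was higher in pheochromocytoma (6.95 to 7.51) than in hyperplasia (5.91 to 6.27), by 1.07 ± 0.15 (limma adjusted p = 3.19e-05), while its older pools read 7.27 and 6.27 and did not pass against the young pools (0.60 ± 0.24, adjusted p = 0.0856). Hoxd10 differed between lesions by 0.37 ± 0.10 (adjusted p = 0.00626) under the first quartile on all arrays. Hoxd3 was lower in pheochromocytoma by its brighter probe set (-0.30 ± 0.10, limma adjusted p = 0.0256) and higher by the other (0.34 ± 0.12, adjusted p = 0.0297), and their mean differed by 0.02. The call of the brighter one ended without pheochromocytoma replicate 1 (-0.24) or 2 (-0.31).

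The promoters of Hoxd8 and Hoxd11 are shown because the 2 genes separated the older from the young arrays in the same way. Both are from RefSeq on the plus strand of GRCr8, Hoxd8 at chr3:80014973-80015222 and Hoxd11 at chr3:79992144-79992393.
Hoxd8: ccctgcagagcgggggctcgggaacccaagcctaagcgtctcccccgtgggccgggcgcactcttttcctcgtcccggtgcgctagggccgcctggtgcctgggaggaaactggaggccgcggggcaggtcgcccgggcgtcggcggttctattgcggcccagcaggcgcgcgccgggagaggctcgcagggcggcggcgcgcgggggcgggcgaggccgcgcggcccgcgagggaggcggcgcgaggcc
Hoxd11: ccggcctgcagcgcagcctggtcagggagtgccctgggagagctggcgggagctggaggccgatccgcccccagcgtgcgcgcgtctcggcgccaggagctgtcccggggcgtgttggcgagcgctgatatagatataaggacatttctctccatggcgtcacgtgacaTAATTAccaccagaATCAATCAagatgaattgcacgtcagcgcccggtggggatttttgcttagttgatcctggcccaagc
The Hoxd8 stretch held 38 CG pairs and no motif match. The Hoxd11 stretch held 20 CG pairs, 2 TAAT matches (the letters TAATTA, read on both strands) and 1 match to TGATNNAT.

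**Figure D4:**
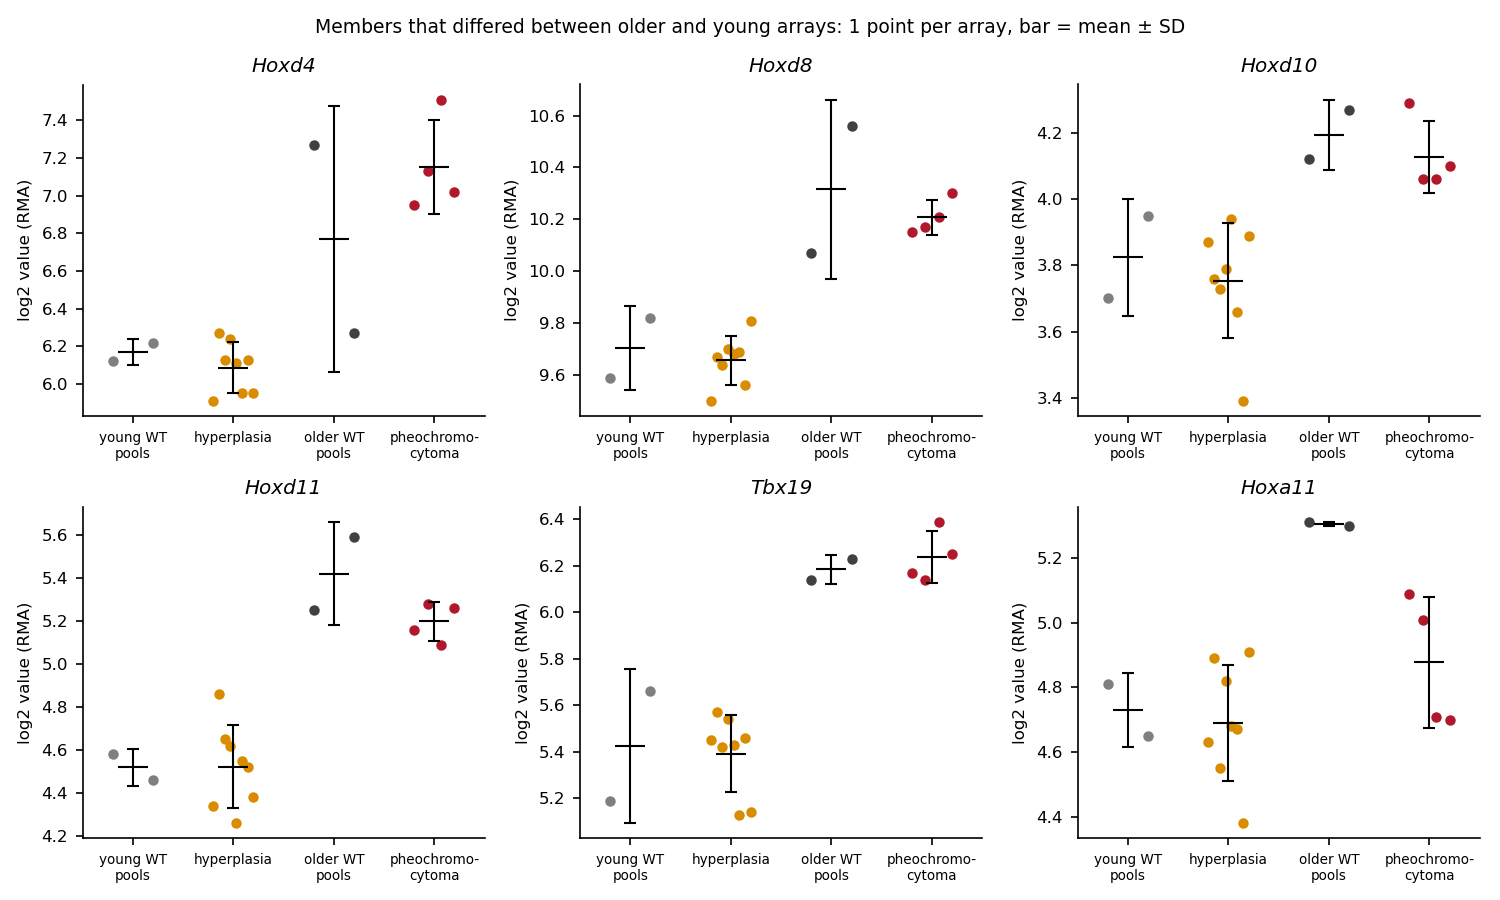
Log2 values of 6 genes that differed between older and young arrays, 1 point per array, in young wild-type pools, hyperplasia, older wild-type pools and pheochromocytoma, with the mean and SD as bars. The older pools and pheochromocytomas lie above the young pools and hyperplasias for Hoxd8, Hoxd10, Hoxd11 and Tbx19, and Hoxd4 and Hoxa11 of the older groups reach down to the young values in 1 group each.

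Tbx19 followed the same split, with 5.19 and 5.66 in the young pools, 5.13 to 5.57 in hyperplasia, 6.14 and 6.23 in the older pools and 6.17, 6.14, 6.39 and 6.25 in pheochromocytoma. It was higher by 0.76 ± 0.17 between pools (limma adjusted p = 0.00456) and by 0.84 ± 0.10 between lesions (adjusted p = 9.29e-06). Without the first young pool the difference between pools was 0.53 (limma adjusted p = 0.0751). Hoxa11 was higher in the older pools (5.31 and 5.30) than in the young ones (4.81 and 4.65), by 0.57 ± 0.17 (limma adjusted p = 0.0253), a call that ended without each of the 4 pools. Hoxb7 ran the other way, 8.40 and 8.17 in the young pools and 7.56 and 7.44 in the older, a difference of -0.78 ± 0.25 (limma adjusted p = 0.0336) that also ended without each pool. Between lesions Hoxb7 was lower in pheochromocytoma by -1.26 ± 0.15, with no overlap (limma adjusted p = 7.46e-06).

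Hoxc4 was higher in older than in young pools by 1.05 ± 0.23 (limma adjusted p = 0.00329) and in pheochromocytoma than in hyperplasia by 0.80 ± 0.14 (adjusted p = 0.00022). Its other probe set was lower in pheochromocytoma than in hyperplasia, by -0.72 ± 0.16 (limma adjusted p = 0.00187), and the mean of both passed neither between lesions (0.04, adjusted p = 0.818) nor between pools (0.47, adjusted p = 0.111). Hoxc9 was higher by 1.07 ± 0.17 (adjusted p = 8.37e-05) and Hoxc5 by 0.53 ± 0.15 (adjusted p = 0.0114) between lesions. Hoxb3 was lower by -0.37 ± 0.14 (limma adjusted p = 0.0453), a call that ended when any of 8 arrays was left out and after quantile normalization (-0.29, adjusted p = 0.129). Among further probe sets, the dimmest of Tbx2 was lower by -1.02 ± 0.15 (limma adjusted p = 5.31e-05), and the second brightest of Tbx3 was higher by 0.71 ± 0.19 (adjusted p = 0.00808) and higher in older than young pools by 1.29 ± 0.32 (adjusted p = 0.00782), while the brightest probe sets of both genes did not pass. Markers of fibroblasts and pericytes also differed between young and older arrays: their mean over 11 genes was 9.04 ± 0.01 in young pools, 9.04 ± 0.12 in hyperplasia, 8.24 ± 0.01 in older pools and 8.52 ± 0.22 in pheochromocytoma. Of the 11 genes 5 were lower between lesions and 4 between pools, and 0 were higher. Of all genes 20.2% were lower between lesions and 12.9% between pools. Leukocyte markers were lower in 5 of 12 genes and higher in 0 between lesions, and lower in 3 of 12 between pools, with array means of 7.57 to 7.76 in young pools, 7.60 to 7.92 in hyperplasia, 7.33 to 7.47 in older pools and 7.17 to 7.46 in pheochromocytoma. Their part in these results was not tested. With the fibroblast and pericyte mean as a covariate, 1 of 28 genes passed between pools (Hoxb7) and 6 between lesions (Hoxb7, Hoxc4, Hoxc9, Hoxd4, Hoxd8 and Tbx19).

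The 8 hyperplasia arrays fall into 4 with and 4 without Xist signal. Of the 28 genes 4, or 14.3%, did not overlap between these sets, against 17.6% of all genes. Tbx3 read 8.13 to 8.22 with Xist and 8.65 to 9.12 without, and Hoxb3 read 7.91 to 8.12 and 8.42 to 8.73. Hoxa5 read 8.11 to 8.33 with Xist and 7.13 to 7.81 without, and Hoxa7 6.82 to 7.40 and 6.14 to 6.52. The first pair was thus lower and the second higher on the arrays with Xist. Tbx4 overlapped, at 8.50 to 9.02 and 8.60 to 8.78. The epithelial markers moved with the same sets, at a mean of 7.07 to 7.36 with Xist and 6.56 to 6.83 without, while cortex markers overlapped at 11.06 to 11.60 and 11.30 to 11.91. Adipocyte markers were at 5.03 to 5.32 with Xist and 4.90 to 4.93 without. The means of the Hox cofactors (8.22 to 8.42 and 8.49 to 8.70) and of the T-box genes outside the Tbx names (5.16 to 5.64 and 5.67 to 5.95) did not overlap either. Of those 3 T-box genes, Eomes and Tbr1 lay under the first quartile on all 16 arrays, which leaves Mga. Among the 6 adipocyte markers Lep and Cidec lay under it on all 16. The part of these markers in the result was not tested, and because Xist disagreed with the labelled sex on 4 of these arrays, the sets are not called sexes.

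**Figure D5:**
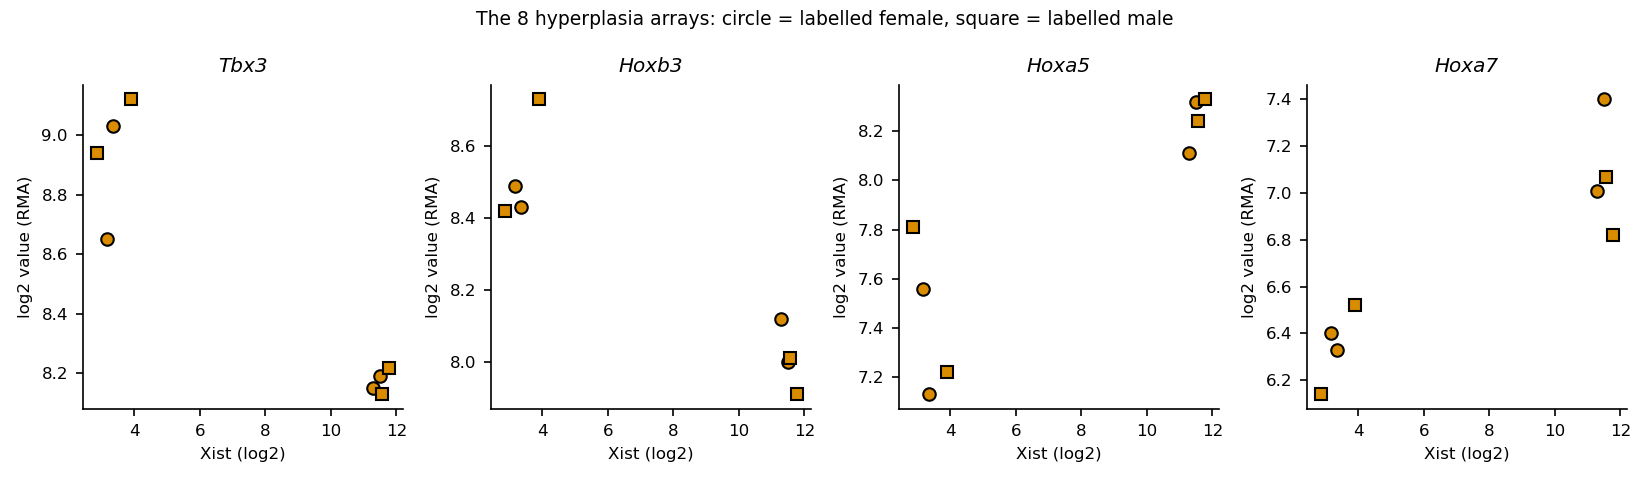
Log2 value of 4 genes against the log2 value of Xist in the 8 hyperplasia arrays, 1 point per array, circles labelled female and squares labelled male. Each gene separates the 4 arrays with Xist from the 4 without, Tbx3 and Hoxb3 downward and Hoxa5 and Hoxa7 upward, and both sets hold circles and squares.

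Among the Hox cofactors, 8 measured genes of the Pbx, Meis and Pknox families, Meis2 was lower in both lesions. It read 10.24 and 10.57 in the young pools against 8.29 to 9.60 in hyperplasia (-1.34 ± 0.36, limma adjusted p = 0.0333), and 10.70 and 11.03 in the older pools against 8.32 to 9.80 in pheochromocytoma (-1.81 ± 0.39, adjusted p = 0.00715). Pbx3 was higher in pheochromocytoma, by 0.88 ± 0.14 (limma adjusted p = 0.00118), and the other 6 passed in neither lesion. Meis2 did not pass in hyperplasia without either young pool (limma adjusted p = 0.119 and 0.288), nor in pheochromocytoma without the second older pool (-1.65, adjusted p = 0.123). The median of the list was -0.0455 in hyperplasia and -0.18 in pheochromocytoma, against -0.0112 and 0.005 over all genes. Of the 8 genes 0 were higher and 1 lower in hyperplasia, where 5.42% of all genes were higher and 3.47% lower. In pheochromocytoma 1 was higher and 1 lower, where 9.66% of all genes were higher and 7.10% lower. Cortex markers moved in the same direction as Meis2, and their part in it was not tested.

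Of 23 Polycomb genes, which repress Hox clusters, 4 were higher and 0 lower in hyperplasia, and 6 higher and 1 lower in pheochromocytoma, with median differences of 0.173 and 0.177. Over all genes 5.42% were higher and 3.47% lower in hyperplasia, and 9.66% and 7.10% in pheochromocytoma, with medians of -0.0112 and 0.005. In hyperplasia Phc1 (0.77 ± 0.14, limma adjusted p = 0.00305), Pcgf2 (0.52 ± 0.14) and Phc2 (0.49 ± 0.10) had the largest differences. Without the first young pool Pcgf2 (0.24, limma adjusted p = 0.49) and Phc2 did not pass, and without the second Phc1 (0.66, adjusted p = 0.0859) and Phc2 did not. In pheochromocytoma Pcgf1, a subunit of a variant Polycomb complex, was higher by 1.32 ± 0.34 (limma adjusted p = 0.0168) and Cbx6 by 0.86 ± 0.13. Pcgf1 read 9.93 and 11.39 in the older pools and 11.40 to 12.63 in pheochromocytoma, and stood at 2.05 without the first older pool and at 0.60 without the second (limma adjusted p = 0.412). Ezh2, the enzyme that places the repressive mark, was lower by -2.30 ± 0.35 (limma adjusted p = 0.000899). That difference lay in the older pools, which read 7.45 and 9.30, against 5.87 to 6.42 in pheochromocytoma, 6.04 to 6.69 in hyperplasia and 5.56 and 6.41 in the young pools. Without the second older pool it was -1.38 (limma adjusted p = 0.0233).

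Of 13 trithorax genes, which keep Hox clusters active, 3 were higher in hyperplasia and 4 in pheochromocytoma, where 5.42% and 9.66% of all genes were higher, and 0 were lower by limma. The largest were Kmt2d in hyperplasia (0.45 ± 0.13, limma adjusted p = 0.0484) and Kmt2b in pheochromocytoma (0.61 ± 0.17, adjusted p = 0.0265). Kmt2d did not pass without either young pool (limma adjusted p = 0.135 and 0.356), and Kmt2b stood at 0.92 without the first older pool and at 0.29 without the second (adjusted p = 0.471).

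Of 17 genes widely described as T-box targets, Cdkn2a, whose repression by Tbx2 and Tbx3 is well known, was higher in both lesions. It read 3.96 and 5.05 in the young pools against 8.04 to 9.25 in hyperplasia (4.18 ± 0.36, limma adjusted p = 1.52e-05), and 5.02 and 5.12 in the older pools against 7.68 to 9.13 in pheochromocytoma (3.09 ± 0.40, adjusted p = 0.000298). In pheochromocytoma Cdh1 (1.53 ± 0.38) and Hand2 (0.60 ± 0.16) were higher too, and Gja1 (-1.72 ± 0.50) and Bmp2 (-1.35 ± 0.34) lower. The older pools lay apart, at 11.65 and 13.36 for Gja1 (10.30 to 11.25 in pheochromocytoma) and at 8.16 and 10.19 for Bmp2 (7.59 to 7.98 in pheochromocytoma). Without the second older pool none of these 4 passed by limma, at 1.38 for Cdh1 (adjusted p = 0.179), 0.29 for Hand2 (adjusted p = 0.45), -0.87 for Gja1 (adjusted p = 0.489) and -0.34 for Bmp2 (adjusted p = 0.424). Without the first, Bmp2 was at -2.37 and Hand2 at 0.90. Cdkn2a passed without each array in turn in both comparisons. The other 16 did not pass in hyperplasia and the other 12 not in pheochromocytoma, and the list medians were 0.0679 and -0.0542. In hyperplasia 1 of 17 was thus higher and 0 lower, where 5.42% of all genes were higher and 3.47% lower, so the count was near the share of all genes. In pheochromocytoma 3 were higher and 2 lower, where 9.66% of all genes were higher and 7.10% lower. Cdh1 is also an epithelial marker, and that list averaged 5.79 ± 0.08 in young pools, 6.96 ± 0.27 in hyperplasia, 5.53 ± 0.09 in older pools and 6.95 ± 0.41 in pheochromocytoma. Of its 8 genes 3 were higher and 1 lower in hyperplasia and 4 higher in pheochromocytoma, led by Epcam and Krt19, and its part in the results for the T-box genes was not tested.

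Of 12 genes described as targets of Hox factors or of retinoids near Hox clusters, Rarb was higher in hyperplasia (0.83 ± 0.22, limma adjusted p = 0.0286). In pheochromocytoma Ret, a receptor kinase, was higher (1.19 ± 0.33, limma adjusted p = 0.0275), and Wnt5a (-0.84 ± 0.21) and Ephb4 (-0.45 ± 0.13) were lower. Wnt5a lay under the first quartile on all arrays. Of the 12 genes 1 was higher and 0 lower in hyperplasia, where 5.42% of all genes were higher and 3.47% lower. In pheochromocytoma 1 was higher and 2 lower, where 9.66% of all genes were higher and 7.10% lower. Rarb did not pass without either young pool (limma adjusted p = 0.16 and 0.194), and Ret, Wnt5a and Ephb4 did not pass without the second older pool (adjusted p = 0.174, 0.219 and 0.269). None of 5 measured ParaHox and Hox-linked homeobox genes and none of 3 T-box genes outside the Tbx names passed by limma in either lesion, the smallest p values being those of Pdx1 (0.0195 unadjusted, 0.0945 adjusted) and Eomes (0.028 unadjusted, 0.119 adjusted) in pheochromocytoma.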

How the data were processed

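Total RNA of 16 rat adrenal samples was measured on 1-colour arrays of oligonucleotide probe sets. Per the submitters' processing notes, the deposited log2 values were made by the authors with RMA, which corrects background, normalizes quantiles and summarises probes; its version and which arrays were normalized together are not given in the sources used here. Arrays have no read depth, so precision depends on how many arrays there are. Of 31099 probe sets, 57 controls were left out. Symbols come from the platform annotation, with 1 symbol for 20826 probe sets, several for 436 and none for 9780.

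The fit was made in R 4.3.3 with limma 3.58.1 (functions lmFit and eBayes on group contrasts) over all 16 arrays with 4 group levels and no covariate, which leaves 12 residual degrees of freedom. P-values are two-sided, adjusted by Benjamini-Hochberg over 31042 probe sets, and passed under 0.05. The fit code was run on simulated data with independent normal noise of equal spread in all groups. That run checks the code and not the calls made here. The first quartile is that of each array. The genes and lists were chosen with earlier results of these data known; the lists and markers were written from general knowledge. Named are all Hox and Tbx genes past the threshold in any comparison, the 3 brightest and the 3 of smallest p among the rest of each family, up to 3 passing genes per list, and the 5 genes most like Tbx4. Marker lists other than cortex and epithelium (chromaffin cells, fibroblasts and pericytes, endothelium, leukocytes, Schwann and sustentacular cells, adipocytes, red blood cells) had 0 to 2 genes higher and 0 to 2 lower in each lesion against its controls. Alternatives covered covariates, normalization, filters, weights, probe sets, a replicate block and leaving out arrays. Promoters are RefSeq sequences of GRCr8.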

Additional observations from a re-analysis of the deposited data

Results flagged for a closer look

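Among 56 sets of 4 to 8 arrays tested (28 genes in hyperplasia and in pheochromocytoma), 4 held an array set far apart from the others of its group, where chance gives 2.8. Hoxa10 read 3.66 in pheochromocytoma replicate 1, with the nearest array at 3.43. Hoxd10 read 4.29 in the same array, with the nearest at 4.10. Both genes lay under the first quartile on every array. Hoxb3 read 7.99 in pheochromocytoma replicate 3, with the nearest array at 7.87. Tbx2 read 6.56 in hyperplasia replicate 1, with the nearest at 6.79.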

How the results depend on the processing

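The count of genes past the threshold in hyperplasia was 2 to 4 in every setting, with 3 as reported, and 2 to 4 without each array in turn. In pheochromocytoma against older wild type it fell from 6 to 1 with the cortex markers as a covariate, to 3 with only the arrays compared, to 3 with the replicate block and to 1 with the fibroblast and pericyte markers as a covariate (chosen after seeing the data), and was 1 to 8 without each array in turn. Where only 1 gene was left it was Tbx4, and among the fits without an array this was the fit without the second older pool. In pheochromocytoma against hyperplasia the count of 11 became 7 without the dimmest 30% of probe sets and 6 with the fibroblast and pericyte markers, and was 9 to 12 without each array. In older against young pools the count of 6 became 1 with the fibroblast and pericyte markers, and was 4 to 6 without each pool. The difference of effects passed for 0 to 2 genes, 2 without the first older pool. Hoxd3 in pheochromocytoma against hyperplasia reversed, to 0.02, in the mean of its probe sets. The causes were not tested. The marker means themselves differ between groups, so these covariates share much of the group difference.

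Replicate numbers are shared between groups, and deviations of same-numbered arrays from their group means correlated at -0.18 to 0.21. In a group of 2 pools the 2 deviations mirror each other, so these values cannot decide whether same-numbered arrays share more than a number. Under the replicate block, 2 genes passed in hyperplasia (Hoxc4 and Tbx4), 3 in pheochromocytoma (Hoxc4, Tbx3 and Tbx4), 9 between lesions and 6 between pools. Over all probe sets, the block left 556 calls in hyperplasia and 1593 in pheochromocytoma, where 2296 and 4425 passed without it. The cortex covariate left 363 and 81. Leaving out arrays for the listed genes was added after seeing the data. Pools of 2 or 3 animals and 2 pools per wild-type group limit all comparisons.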
